A study of Rattus norvegicus and Bos taurus with 6 samples.

Results

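Fibroblast growth factor (FGF) signalling was examined through 10 genes chosen by symbol, which are the ligands Fgf1, Fgf2, Fgf7, Fgf9 and Fgf10, the intracellular family member Fgf14, the receptors Fgfr1, Fgfr2 and Fgfr3, and the co-receptor gene Klb. They are 10 of 38697 genes named in the rat Parse files, of 25629 in the rat 10x Genomics file and of 36075 in the cow file, and all 10 had transcripts in each of the 6 single-nucleus RNA-seq (snRNAseq) libraries. Nuclei came from snap-frozen fat of male Dahl SS rats (strain SS/HsdMcwiCrl, housed at 22 °C) and from lactating female Holstein cattle. The white rat depots were perivascular adipose tissue of the mesentery (mesPVAT) and retroperitoneal (RP) fat. The brown rat depots were the perivascular fat of the thoracic aorta (taPVAT) and brown adipose tissue (BAT) from below the scapula, and the cow depot was white adipose tissue (WAT) from under the skin of the flank. RP fat, taPVAT, BAT and cow WAT were run with the Parse Evercode WT v3 kit in batch 2, and mesPVAT was run both with that kit and with the 10x Genomics 3' v3 kit in batch 1. In the isolation used for Parse, the study spun nuclei of rat and cow white fat faster than those of taPVAT. It gives no speed for BAT. Each tissue and platform had 1 library, no treatment is named, and neither the age nor the number of animals in a library is given in the labels.

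FGF ligands bind receptor tyrosine kinases on the cell surface together with heparan sulfate, and the receptors signal through the adaptor Frs2 to the Ras and MAP kinase pathway. Most ligands act on neighbouring cells, whereas the hormone Fgf21 reaches fat through the blood and needs beta-klotho, the product of Klb, beside Fgfr1. In adipose tissue the pathway is known for the growth of fat precursors and for the response of adipocytes to Fgf21.

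The 10 genes were followed as unique molecular identifiers (UMIs, each standing for 1 captured transcript), summed over nuclei and divided by all UMIs of the library or cell class, and are given as CPM, the UMIs of a gene for every 1000000 UMIs. Total UMIs ranged from 845316 in the RP-labelled library to 16827260 in cow WAT, and the median nucleus held from 161 UMIs in mesPVAT on 10x to 3530 UMIs in cow WAT. The study describes more genes per nucleus in RP fat than in mesPVAT on the Parse platform. The deposited files gave the reverse order, with medians of 304 genes for mesPVAT and 197 genes for RP fat, so these are called the mesPVAT-labelled and the RP-labelled library. Comparing both with brown fat does not depend on which is which, while comparing them with each other, or the 10x library with mesPVAT on Parse, does. Ucp1, the thermogenic uncoupling protein, stood at 1782 CPM in taPVAT and 2072 CPM in BAT, against 63.4 CPM in the mesPVAT-labelled library, 89.9 CPM in the RP-labelled library, 0.808 CPM in mesPVAT on 10x and 0.654 CPM in cow WAT. No barcode was shared between any pair of libraries (0 in each). All intervals below are 95% intervals (exact Poisson for levels, exact binomial for shares, exact conditional binomial for ratios) and cover counting error only. UMIs of 1 nucleus are not independent, and there is no replicate library from which to test a difference.

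Nuclei were placed in a class when they held a UMI of exactly 1 of 5 markers, namely Plin1 (adipocytes), Ptprb (endothelial cells), Pdgfra (adipocyte stem and progenitor cells, ASPCs), Notch3 (mural cells) and Msln (mesothelial cells). The share of nuclei with none of the markers was 14.1% in BAT, 23.0% in taPVAT, 32.3% in cow WAT, 63.8% in the mesPVAT-labelled library, 77.2% in mesPVAT on 10x and 81.6% in the RP-labelled library. For mesPVAT and RP fat on Parse, the study saw no clear break between nuclei and background. It relates this to difficulty in separating true nuclei from ambient RNA. Some barcodes counted as nuclei here may therefore be background, and their part in the levels was not tested. In the Plin1 class all other listed adipocyte genes found in the file were higher than in the remaining classes, in each of the 6 libraries. In the Pdgfra class all 6 other ASPC genes were higher in 4 libraries, with 4 of 6 higher in BAT, where the class had 19 nuclei, and 4 of 6 in the RP-labelled library. The Msln class held 503 nuclei in mesPVAT on 10x, at most 17 in any Parse library and none in BAT, and the cow file does not name MSLN. No doublet caller was applied, and nuclei with several markers, 17.4% in BAT and 23.2% in cow WAT, were left out of the classes. In cow WAT these left-out nuclei held 9197492 of the 16827260 UMIs. They also held 122 of 165 UMIs of Klb, 1038 of 1415 of Fgf2, 855 of 1272 of Fgf7 and 1677 of 2278 of Fgf10. The cow class values do not cover them.

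The 250 bases before the start site are shown for Fgf10 and Klb (RefSeq, build GRCr8, 5′ to 3′ on the strand of the gene). Among the single-marker classes of taPVAT, BAT and cow WAT, Fgf10 was concentrated in the Pdgfra class and Klb in the Plin1 class. The windows are chr2:52533689-52533938 on the plus strand for Fgf10 and chr14:43304533-43304782 on the minus strand for Klb.
Fgf10: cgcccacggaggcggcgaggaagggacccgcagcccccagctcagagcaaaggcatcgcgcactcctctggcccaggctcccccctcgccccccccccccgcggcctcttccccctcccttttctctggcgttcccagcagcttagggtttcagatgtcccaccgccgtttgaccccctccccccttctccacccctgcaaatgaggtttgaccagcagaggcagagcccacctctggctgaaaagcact
Klb: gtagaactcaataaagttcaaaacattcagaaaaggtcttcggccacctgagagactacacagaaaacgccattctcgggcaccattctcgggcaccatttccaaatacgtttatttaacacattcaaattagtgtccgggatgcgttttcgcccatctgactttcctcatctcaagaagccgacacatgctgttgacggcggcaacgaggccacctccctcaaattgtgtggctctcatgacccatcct
Neither TATAAA, which 12.9% of 33469 rat windows of this length held on either strand, nor CCAAT, which 34.0% held, was found in these windows, so no letters are in capitals. GC content was 67.2% for Fgf10 and 47.6% for Klb, and the median window had 51.2%. The Fgf10 window held 13 CpG sites and the Klb window 12, against 5 in the median window. Of the 10 genes, 9 had an entry in this table.

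**Figure D1:**
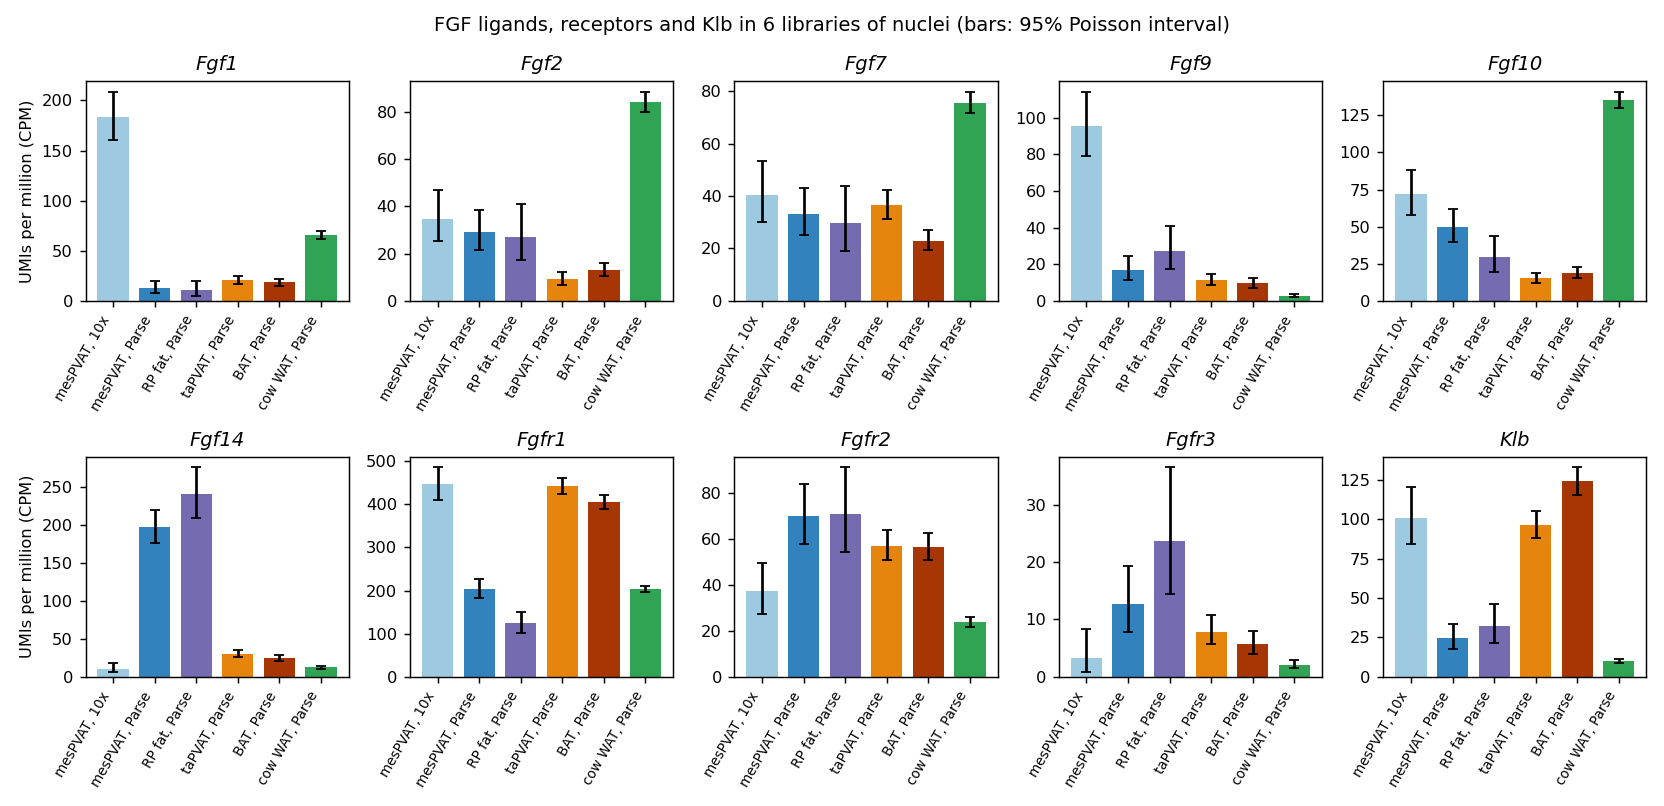
Level of each of the 10 genes in each library (CPM, bars with 95% Poisson intervals, 1 library per bar). Klb and Fgfr1 stood highest in taPVAT, BAT and mesPVAT on 10x, Fgf14 in the white rat Parse libraries, and Fgf1 and Fgf9 in mesPVAT on 10x.

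Klb, the co-receptor for Fgf21, was the only one of the 10 genes at least 2 times higher in both brown depots than in both white rat depots on the Parse platform, where 5.51% of 23986 genes compared were higher by this rule. Its level was 124 CPM (116 to 133) in BAT and 96.5 CPM (88.1 to 105) in taPVAT. It was 24.7 CPM (17.8 to 33.6) in the mesPVAT-labelled library and 31.9 CPM (21.0 to 46.5) in the RP-labelled library. The lowest brown level was 3.02 times the highest white one, and the white libraries were not distinguishable from each other, with a ratio of 1.29 (0.763 to 2.15). On 10x, however, mesPVAT reached 101 CPM (84.1 to 120.3), level with taPVAT, so that 0 of the 10 genes were higher in brown fat once this library was counted as white (3.00% of all genes were). Cow WAT had the lowest level, 9.81 CPM (8.37 to 11.4), which became 4.59 CPM when only nuclei within the study's quality limits were used.

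Among the single-marker classes, Klb transcripts were concentrated in the Plin1 class of taPVAT, BAT, cow WAT and mesPVAT on 10x. Of the 515 Klb-positive nuclei in BAT, 72.6% were in the Plin1 class, which held 53.0% of all nuclei, and 66.5% of 367 were in the Plin1 class in taPVAT, against 44.6% of all nuclei. Within the Plin1 class the level was 163 CPM in BAT, 14.0 times (6.76 to 35.0) that of the other 4 classes together. The ratio was 8.97 (4.07 to 24.6) in taPVAT, 10.4 (4.82 to 24.2) in cow WAT and 4.49 (1.49 to 18.2) in mesPVAT on 10x. The cow ratio rested on 25 UMIs in the Plin1 class, while left-out nuclei of several markers held 122 of the 165 Klb UMIs. With such nuclei allowed, the cow Ptprb ratio of Klb turned from 0.112 to 1.70. In both white rat Parse libraries Klb was too sparse for the comparison, with 13 and 7 UMIs in the Plin1 class. Nuclei with no marker are outside these ratios. On 10x they held 99 of the 125 Klb UMIs, at 115 CPM (93.2 to 140). The Plin1 class held 105 CPM (63.0 to 164) there, so the 2 could not be told apart on 10x. No-marker nuclei held 30.4 CPM (14.6 to 55.9) in BAT and 25.9 CPM (13.4 to 45.3) in taPVAT. Detection in the endothelial class, which by its definition holds no Plin1 UMI, was 1.53% of nuclei in BAT at a median of 1121.5 UMIs. It was 26.2% in the Plin1 class at 2044 UMIs. With nuclei of several markers allowed, the endothelial ratio of Klb went from 0.0740 to 0.574 in BAT and from 0.133 to 0.697 in taPVAT. The Notch3 ratio became 0.527 in BAT and 0.745 in taPVAT, and the Pdgfra ratio 0.637 in taPVAT, so that none of these was past 2-fold. When each nucleus was thinned to 200 UMIs, Klb was detected in 2.11% (1.60 to 2.73) of BAT nuclei, 1.66% (1.21 to 2.22) of taPVAT nuclei, 0.627% (0.359 to 1.02) of the mesPVAT-labelled library and 0.931% (0.510 to 1.56) of the RP-labelled library. In mesPVAT on 10x the share was 2.14% (1.57 to 2.86), and in cow WAT 0 of 2297 nuclei were positive, which allows a share of up to 0.131%. Before thinning the shares were 19.1%, 13.6%, 1.29%, 0.963%, 2.02% and 3.40% in the same order, and thinning left out 476 nuclei of the mesPVAT-labelled library, 1302 of the RP-labelled library and 3788 of the 10x library. The contrast was thus smaller at equal depth. The intervals of BAT lay above those of both white Parse libraries, and the interval of taPVAT lay above the mesPVAT-labelled library but overlapped the RP-labelled one.

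Within Plin1-class nuclei alone Klb stood at 163 CPM (149.9 to 177) in BAT and 125 CPM (111 to 139) in taPVAT, a ratio of 1.31 (1.14 to 1.51). Both lay above the mesPVAT-labelled library, at 33.4 CPM (17.8 to 57.1). The RP-labelled library, at 81.1 CPM from 7 UMIs, had an interval (32.6 to 167) that covered taPVAT and overlapped BAT, so the brown depots could not be told apart from it within this class. Among all nuclei with a Plin1 UMI in BAT, those that also held Ucp1 had 149 CPM of Klb (138 to 160.2) and those without it 113 CPM (85.2 to 147). In taPVAT the same split gave 117 and 105 CPM, with overlapping intervals (106 to 128 and 78.1 to 137). Klb was thus also detected in adipocyte nuclei that held no Ucp1 UMI. Those nuclei were shallower, with medians of 1125 against 2467.5 UMIs in BAT and 979.5 against 2336 UMIs in taPVAT. A missing Ucp1 UMI therefore does not show that a nucleus lacked Ucp1 transcripts.

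Fgfr1, the receptor that pairs with beta-klotho, was high in brown fat and low in the white Parse libraries, but did not reach the 2-fold rule. It measured 442 CPM (424 to 461) in taPVAT, 405 CPM (389 to 421) in BAT, 205 CPM (183 to 228) in the mesPVAT-labelled library and 124 CPM (102 to 150) in the RP-labelled library. The lowest brown level was 1.98 times the highest white one. Mesenteric PVAT on 10x gave 448 CPM (411 to 487), level with taPVAT, and cow WAT gave 203 CPM (197 to 210). Fgfr1 was again an adipocyte-weighted transcript in every Parse library. The Plin1 class exceeded the other classes 3.23 times (2.62 to 4.05) in BAT, 2.64 times (2.12 to 3.31) in taPVAT and 2.50 times (2.19 to 2.85) in cow WAT. The ratio was 2.30 (1.49 to 3.65) in the mesPVAT-labelled library and 2.14 (1.04 to 4.55) in the RP-labelled library, and on 10x it was 1.62 (1.15 to 2.32). The excess was smaller with classes set by longer marker lists, at 1.91 in taPVAT, 1.67 in the mesPVAT-labelled library and 1.49 in the RP-labelled library. In cow WAT it fell to 1.88 with nuclei of several markers allowed. Nuclei with no marker, outside these ratios, held 458 CPM (414 to 505) of Fgfr1 on 10x, against 502 CPM in the Plin1 class. In the mesPVAT-labelled library they held 214 CPM (181 to 252), against 265 CPM (216 to 321) in the Plin1 class. In BAT they held 280 CPM against 484 CPM. The classes past 2-fold in the low direction differed between libraries. The endothelial class was low in BAT (109 CPM, 0.229 times), taPVAT (125 CPM, 0.238 times) and the mesPVAT-labelled library (100.4 CPM, 0.409 times). The Pdgfra class was low in BAT, at 129 CPM from 3 UMIs (0.296 times, 0.0609 to 0.866), but not in taPVAT, at 361 CPM (0.732 times, 0.510 to 1.02). The Notch3 class was low in cow WAT (94.5 CPM, 0.456 times) and held no Fgfr1 UMI in the RP-labelled library, which allows up to 131 CPM. With nuclei of several markers allowed, the ratios were 0.654, 0.692 and 0.554 for the endothelial classes in the same order, 0.861 for the Pdgfra class of BAT and 0.894 for the Notch3 class of cow WAT, none past 2-fold.

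Fgfr1 and Klb transcripts met in the same nuclei, and in BAT and taPVAT the Fgfr1 level of nuclei with Klb was not distinguishable from that of other adipocyte nuclei. In BAT the 498 nuclei with both Plin1 and Klb had 452 CPM of Fgfr1 (423 to 482), and the 1368 nuclei with Plin1 but no Klb UMI had 443 CPM (421 to 467). In taPVAT the values were 478 CPM (442 to 517) and 497 CPM (471 to 524). In cow WAT the counting intervals did not overlap. The 52 nuclei with both Plin1 and Klb had 325 CPM (301 to 350.4), and the 349 with Plin1 but no Klb UMI had 277 CPM (263 to 293). Their median depths were 32667.5 and 6470 UMIs, the former above the study's upper limit of 15000 UMIs. Whether this gap remains within that limit was not tested. Fgfr1 was detected in 67.5% of the nuclei with Plin1 and Klb in BAT and in 52.6% of those without Klb, but the former were deeper, with a median of 2960.5 UMIs against 1938. Fgfr2 levels did not part either, at 56.6 CPM (46.8 to 68.0) and 50.2 CPM (42.8 to 58.6) in BAT. The sparse Fgfr3 did part in BAT by its counting intervals. It had 9.85 CPM (6.02 to 15.2) from 20 UMIs with Klb and 3.08 CPM (1.48 to 5.67) from 10 UMIs without. In taPVAT its intervals overlapped, at 7.54 CPM (3.62 to 13.9) and 6.13 CPM (3.57 to 9.82).

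**Figure D2:**
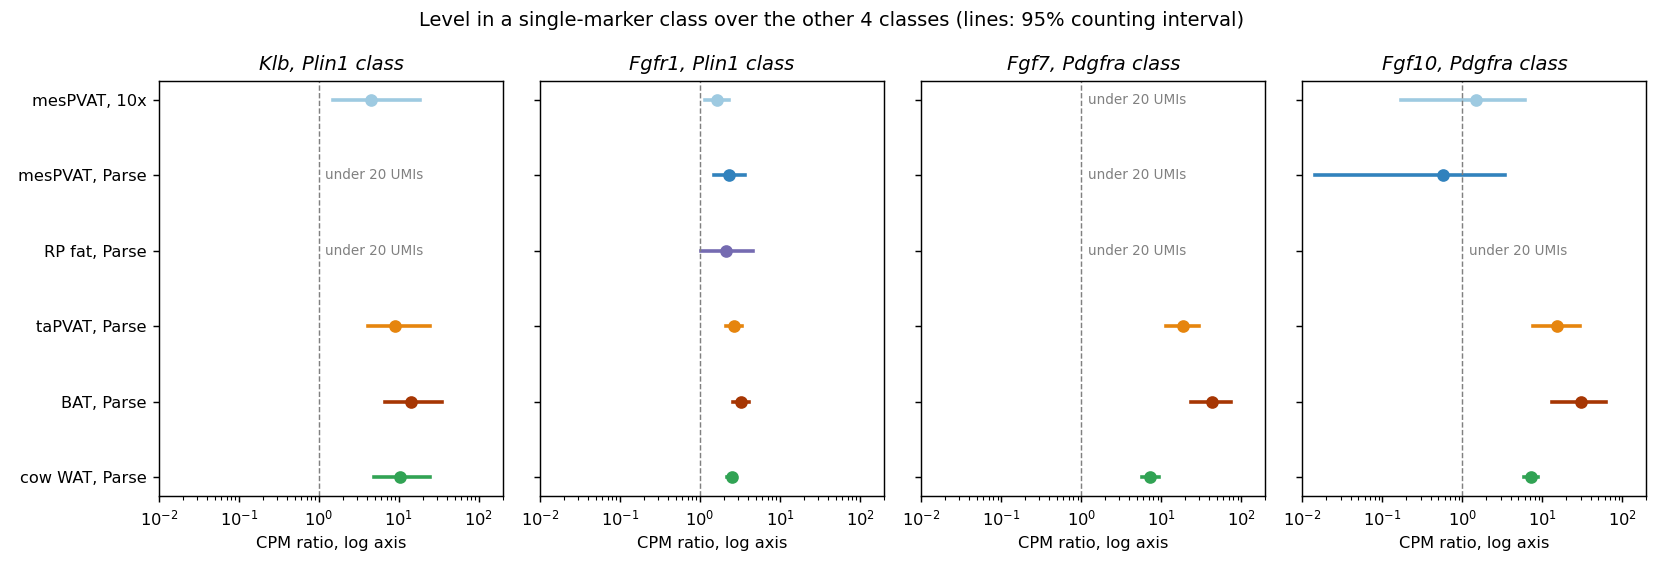
Ratio of the level in a single-marker class to the level in the other 4 classes (log axis), for Klb and Fgfr1 in the Plin1 class and for Fgf7 and Fgf10 in the Pdgfra class. Points are 1 library each and lines are 95% counting intervals, and libraries with under 20 UMIs over the classes are marked in words. Klb, Fgf7 and Fgf10 lie well above 1 in taPVAT, BAT and cow WAT, and Fgfr1 lies between 1.62 and 3.23 in the 6 libraries.

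Fgfr2, whose epithelial form is the receptor of Fgf7 and Fgf10, was even across the rat Parse libraries by CPM, but not by size factors. These scale UMIs so that the middle gene is equal. They gave 240 scaled UMIs in taPVAT and 290 in BAT, against 115 in the mesPVAT-labelled and 83.5 in the RP-labelled library. By CPM, Fgfr2 measured 70.0 CPM (57.9 to 84.0) in the mesPVAT-labelled library, 71.0 CPM (54.2 to 91.4) in the RP-labelled library, 57.1 CPM (50.7 to 64.0) in taPVAT and 56.5 CPM (50.8 to 62.7) in BAT, so that all these intervals overlapped. On 10x the level in mesPVAT was 37.2 CPM (27.2 to 49.6), below the mesPVAT-labelled Parse library with a ratio of 0.531 (0.369 to 0.753), and cow WAT had 23.7 CPM (21.4 to 26.2). By class, the Fgfr2 level of the endothelial class was 1.93 times (1.32 to 2.75) that of the others in BAT and 1.76 times (1.10 to 2.69) in taPVAT, both under the 2-fold rule. In cow WAT the Plin1 class was the higher one, at 2.34 times (1.58 to 3.43), or 1.89 times within the study's quality limits. Fgfr3 was sparse everywhere, with 4 UMIs in mesPVAT on 10x and at most 40 in any other library. Its level was 12.7 CPM (7.85 to 19.4) in the mesPVAT-labelled library, 23.7 CPM (14.5 to 36.5) in the RP-labelled library, 7.84 CPM (5.60 to 10.7) in taPVAT, 5.70 CPM (3.99 to 7.89) in BAT and 2.08 CPM (1.45 to 2.89) in cow WAT. These counts were too few to place Fgfr3 in a cell class.

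The paracrine ligands Fgf7 and Fgf10 were concentrated in the Pdgfra class, the ASPCs, of taPVAT, BAT and cow WAT. In taPVAT this class held 331 CPM of Fgf7 (228 to 465) from 33 UMIs in 20 of 78 nuclei, 18.6 times (11.6 to 29.3) the other classes. In cow WAT it held 174 CPM (151 to 198) in 85 of 205 nuclei, a ratio of 7.31 (5.74 to 9.37). In BAT it held 730.0 CPM (425 to 1169), but from 17 UMIs in 5 of 19 nuclei, and the level was 330.1 CPM without the nucleus that carried 10 of them. The direction was therefore shared by these libraries, and the size in BAT rested on few nuclei. Classes set by the longer marker lists gave stromal levels of 274 CPM in taPVAT, 307 CPM in BAT and 171 CPM in cow WAT for Fgf7. In mesPVAT on 10x these lists gave another picture, with 68.5 CPM (47.7 to 95.3) in adipocytes, 6.63 times (2.09 to 33.7) the other listed classes, and 1 UMI in 458 stromal nuclei.

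Fgf10, which is needed for the growth of white fat in the embryo, followed the same classes. The Pdgfra class held 151 CPM (84.2 to 248) in taPVAT, 386 CPM (177 to 734) in BAT and 253 CPM (226 to 282) in cow WAT, which were 15.4 times (7.63 to 29.8), 30.6 times (13.2 to 62.9) and 7.27 times (5.95 to 8.91) the other classes. The BAT level came from 9 UMIs in 5 of 19 nuclei, and was 223 CPM without the nucleus that held 4. The taPVAT level came from 15 UMIs in 9 of 78 nuclei, and was 106 CPM without the nucleus that held 5. Over 24 combinations of library and class, Fgf10 was the gene most like Fgf7 among 7628 genes compared, and Fgf7 was the gene most like Fgf10, with Pearson's r = 0.78 for log2(CPM + 10). The next most like Fgf10 was Fap, a serine protease of activated fibroblasts (r = 0.74), and Fgf7 was followed by Frmd6 (r = 0.75) and by Pcolce, which enhances the processing of procollagen (r = 0.75). These points share libraries and depth, and the correlations are a description. In whole libraries the ligands had different orders of depots. Fgf7 measured 33.2 CPM (25.0 to 43.2) in the mesPVAT-labelled library, 29.6 CPM (19.1 to 43.7) in the RP-labelled library, 36.5 CPM (31.4 to 42.1) in taPVAT and 23.0 CPM (19.4 to 27.0) in BAT. Fgf10 measured 50.1 CPM (39.9 to 62.1), 29.6 CPM (19.1 to 43.7), 15.1 CPM (11.9 to 18.9) and 18.8 CPM (15.6 to 22.5) in the same order.

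In mesPVAT on 10x and in the mesPVAT-labelled Parse library, most Fgf10 transcripts of the single-marker classes were in Plin1 nuclei. Nuclei with no marker are outside these classes. On 10x they held 62 of the 89 Fgf10 UMIs, at 71.8 CPM (55.1 to 92.1), which overlapped the interval of the Plin1 class (71.6 to 177). In the mesPVAT-labelled Parse library they held 30 of 83, at 42.9 CPM (28.9 to 61.2). On 10x the Plin1 class held 116 CPM (21 UMIs in 19 nuclei), 6.62 times (1.98 to 34.7) the other classes together, and the Pdgfra class held 97.9 CPM (11.9 to 353.7) from 2 UMIs in 42 nuclei. The mesPVAT-labelled Parse library gave 74.5 CPM in the Plin1 class from 29 UMIs, a ratio of 1.94 (0.894 to 4.66), and 36.1 CPM (0.914 to 201) from 1 UMI in the 57 nuclei of the Pdgfra class. Adipocyte and ASPC nuclei of these libraries could therefore not be told apart by their Fgf10 level. The Plin1 classes of taPVAT and BAT held 7.13 and 8.58 CPM, and that of the RP-labelled library held 1 UMI (11.6 CPM), 0.155 times (0.00380 to 0.937) the mesPVAT-labelled level. With the longer marker lists the 10x excess was 1.57 times, with 92.0 CPM in adipocytes, 64.3 CPM in stromal nuclei and 231 CPM in mural nuclei, the last from 7 UMIs.

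Outside the Pdgfra class, the direction of the Fgf7 and Fgf10 ratios differed between BAT and cow WAT, but mostly depended on how the classes were set. The Notch3 class of BAT held 110.4 CPM of Fgf7 (63.1 to 179), 6.23 times (3.37 to 10.9) the other classes, and that of cow WAT held 23.0 CPM, 0.337 times (0.220 to 0.498). Fgf10 in the Ptprb class was 43.9 CPM in BAT, 3.90 times (2.13 to 6.89) the other classes, and 18.4 CPM in cow WAT, 0.152 times (0.105 to 0.215). With nuclei of several markers allowed, the Notch3 ratio of Fgf7 was 2.35 in BAT and turned to 1.12 in cow WAT, and the Ptprb ratio of Fgf10 was 1.55 in BAT and 0.668 in cow WAT, both under 2-fold. In cow WAT the whole-library levels were 75.6 CPM (71.5 to 79.9) for Fgf7 and 135 CPM (129.9 to 141) for Fgf10, the highest of the 6 libraries for each, and Pdgfra itself was at 134 CPM there against 14.7 CPM in BAT. How far the share of ASPC nuclei sets these levels was not tested.

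**Figure D3:**
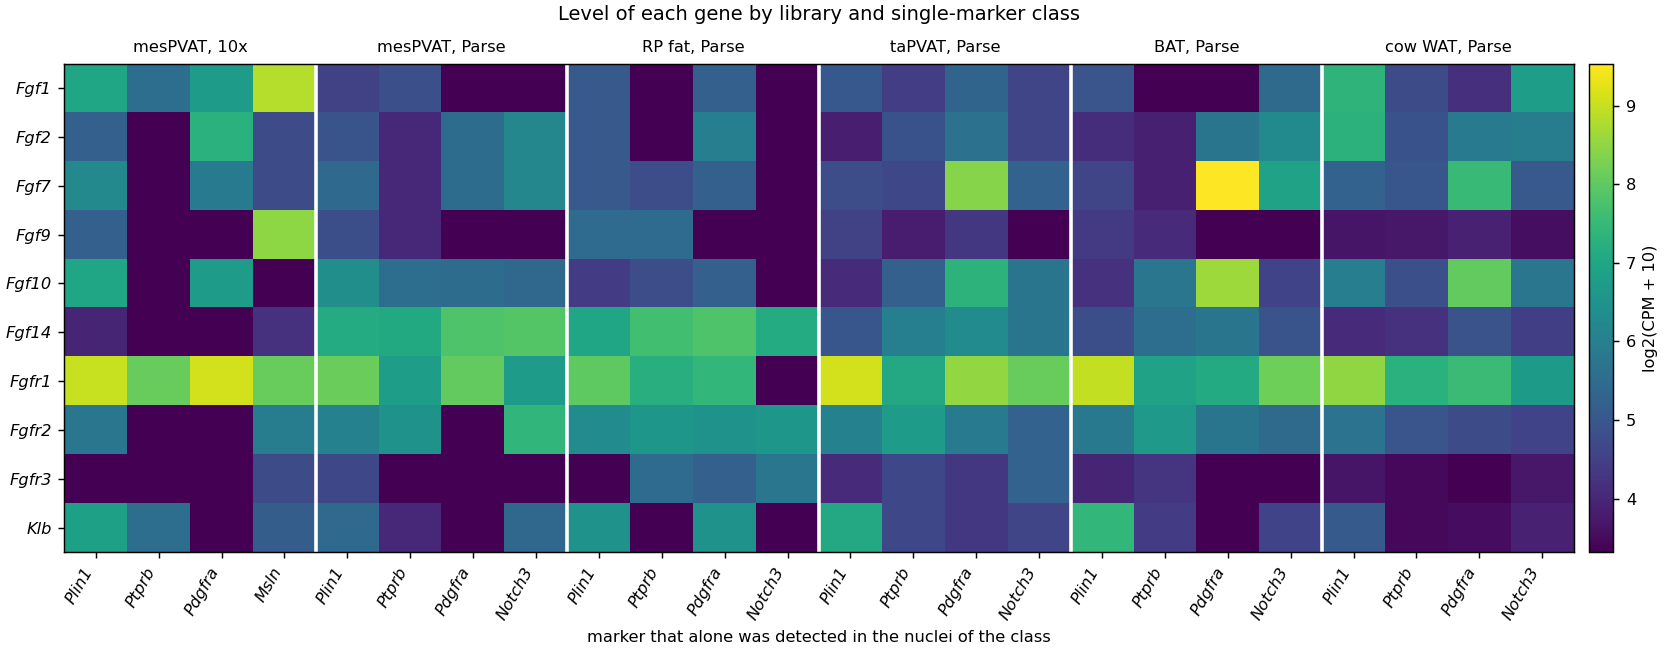
Level of the 10 genes, as log2(CPM + 10), in the 24 combinations of library and single-marker class with at least 20000 UMIs. Fgf7 and Fgf10 are brightest under Pdgfra in taPVAT, BAT and cow WAT, Klb under Plin1 in BAT and taPVAT, and Fgf1 and Fgf9 under Msln in mesPVAT on 10x.

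Fgf1, which in fat is known to be induced by feeding, and Fgf9, which is made by mesothelium in the developing lung, were raised in the Msln class of mesPVAT on 10x, the only library in which mesothelial nuclei were frequent. Fgf9 reached 348 CPM (250.1 to 473) in this class, from 41 UMIs in 29 of 503 nuclei, 16.4 times (6.49 to 53.2) the other classes. Fgf1 reached 450 CPM (337 to 589) from 53 UMIs in 39 nuclei, 4.24 times (2.59 to 7.12) the other classes. Most UMIs of both genes on 10x lay in nuclei with no marker, outside these ratios. Such nuclei held 147 of the 227 Fgf1 UMIs, at 170 CPM (144 to 200), and 69 of the 118 Fgf9 UMIs, at 79.9 CPM (62.2 to 101). The longer marker lists placed 171 nuclei of this library as mesothelial. The 5 Msln-class nuclei of taPVAT held 4 Fgf9 UMIs (626 CPM, 170 to 1602) and no Fgf1 UMI, which allows up to 469 CPM of Fgf1. Mesothelial markers other than Msln were 11.7 times higher in the Msln class on 10x, and all 5 of those in the file were higher.

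The whole-library levels of these ligands parted between mesPVAT on 10x and the mesPVAT-labelled Parse library. Fgf1 measured 183 CPM (160.3 to 209) in mesPVAT on 10x and 13.3 CPM (8.32 to 20.1) in the mesPVAT-labelled Parse library, a ratio of 13.8 (8.90 to 22.5). Fgf9 measured 95.4 CPM (78.9 to 114) and 16.9 CPM (11.2 to 24.4), a ratio of 5.64 (3.71 to 8.85). Mesothelial markers moved with them, since the 7 listed genes (6 named in the 10x file) summed to 951 CPM on 10x and 114 CPM on Parse, with none at 0. The Fgf1 difference was also present within the Plin1 class, 116 CPM against 12.9 CPM, or 9.01 times (3.31 to 30.6), and Fgf1 stands under a different gene identifier in each of the rat annotations (ENSRNOG00000013867 on 10x and ENSRNOG00000087149 on Parse). Kit, nuclei isolation, genome annotation and mesothelial share all differ between these libraries and cannot be told apart. The depot may differ as well, since the order of the Parse medians leaves the mesPVAT label uncertain. In the remaining libraries Fgf1 stood at 10.6 CPM (4.87 to 20.2) in the RP-labelled library, 20.4 CPM (16.7 to 24.7) in taPVAT and 18.4 CPM (15.2 to 22.0) in BAT, and Fgf9 at 27.2, 11.4 and 9.50 CPM, with 2.73 CPM in cow WAT.

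The mesPVAT library on 10x was also set against the mesPVAT-labelled Parse library over all genes. Of the 10 genes, 4 were at least 2 times higher on 10x (Fgf1, Fgf9, Fgfr1 and Klb), where 22.3% of 12067 genes were. Another 2 were lower (Fgf14 and Fgfr3), where 31.5% were. Klb was 4.08 times (2.85 to 5.96) and Fgfr1 2.19 times (1.91 to 2.51) higher on 10x. Within the Plin1 class the ratios were 3.13 (1.47 to 6.90) for Klb and 1.89 (1.41 to 2.54) for Fgfr1. The other 4 genes differed by less than 2-fold. Of the feedback inhibitors and targets of the pathway, 4 of 8 compared were higher on 10x (Dusp6, Spry4 and Spry1 with the largest ratios) and 0 lower, and the other 4 had ratios between 0.841 and 1.32. Dusp6, a phosphatase that switches off ERK, was at 275 CPM on 10x and 7.24 CPM on Parse. Of the adaptors, 3 of 6 were higher on 10x (Frs2, Grb2 and Gab1) and 0 lower.

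In cow WAT, Fgf1 and the heparin-binding mitogen Fgf2 were highest in the Plin1 class. Fgf1 measured 153 CPM (131 to 179) there, 4.10 times (3.28 to 5.13) the other classes, and Fgf2 measured 148 CPM, 4.02 times (3.21 to 5.05). Fgf1 was also found in the Notch3 class, at 99.4 CPM (82.5 to 119) in 70 of 281 nuclei, while the Ptprb class held 16.8 CPM of Fgf1 and 19.4 CPM of Fgf2. The mural excess of Fgf1, 2.05 times, turned to 0.842 times when nuclei with several markers were allowed into the classes. Whole-library levels in the cow were 65.4 CPM (61.6 to 69.4) for Fgf1 and 84.1 CPM (79.8 to 88.6) for Fgf2. A single nucleus held 178 of the 1101 Fgf1 UMIs, without which the level was 55.0 CPM, and Fgf2 fell to 52.5 CPM within the study's quality limits.

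In rat fat, Fgf2 had another distribution. It was lower in the Plin1 class than in the other classes of taPVAT, 4.35 against 23.2 CPM or 0.188 times (0.0724 to 0.493), and of BAT, 7.69 against 21.6 CPM or 0.355 times (0.176 to 0.753), the latter 0.502 times within the study's quality limits. In BAT it was raised in the Notch3 class, at 69.0 CPM from 10 UMIs in 5 nuclei, 9.13 times (3.97 to 19.3) the rest, and in taPVAT in the Pdgfra class, at 40.1 CPM from 4 UMIs, 6.75 times (1.65 to 20.7), a ratio that no longer passed without its top nucleus. Whole-library levels were 29.0 CPM (21.4 to 38.4) in the mesPVAT-labelled library, 27.2 CPM (17.2 to 40.8) in the RP-labelled library, 9.22 CPM (6.77 to 12.3) in taPVAT, 12.98 CPM (10.3 to 16.1) in BAT and 34.7 CPM (25.1 to 46.8) in mesPVAT on 10x. The white Parse libraries lay above the brown ones without overlap, the lowest white level being 2.10 times the highest brown one. The difference no longer passed 2-fold with nuclei of at least 500 UMIs or without the 20 largest genes in the total. With size factors, which scale UMIs so that the middle gene is equal, the order changed, with 66.7 scaled UMIs in BAT, 47.4 in the mesPVAT-labelled library, 38.8 in taPVAT and 32.0 in the RP-labelled library.

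Fgf14, which is not secreted and binds voltage-gated sodium channels inside excitable cells, showed the largest gap of the 10 genes between the white and brown rat Parse libraries. It measured 197 CPM (176 to 219) in the mesPVAT-labelled library and 240.1 CPM (208 to 276) in the RP-labelled library, against 30.0 CPM (25.4 to 35.1) in taPVAT and 24.2 CPM (20.5 to 28.4) in BAT. Mesenteric PVAT on 10x had 10.5 CPM (5.59 to 18.0), 0.0534 times (0.0281 to 0.0926) the mesPVAT-labelled Parse library, and cow WAT had 12.0 CPM (10.4 to 13.8). In the mesPVAT-labelled library the Plin1, Ptprb, Pdgfra and Notch3 classes held 131, 125, 217 and 224 CPM, and nuclei with no marker held 237 CPM. In the RP-labelled library the nuclei with no marker held 268 CPM. No class passed 2-fold in the white Parse libraries. In taPVAT the endothelial class was 2.27 times and the Pdgfra class 2.79 times the others, and in BAT the endothelial class was 2.02 times, all from 16 UMIs or fewer. A single nucleus held 4 of the 7 UMIs of the taPVAT Pdgfra class, and without it the ratio was 1.22 and the level fell from 70.2 to 30.6 CPM. Without their top nucleus the endothelial ratios were 1.95 in taPVAT and 1.90 in BAT. With nuclei of several markers allowed, the ratios were 0.972 for the Pdgfra class and 1.23 and 1.38 for the endothelial classes of taPVAT and BAT, so that none of these calls held. Nuclei with no marker held 88.5 CPM (63.5 to 120.1) in taPVAT and 72.9 CPM (46.7 to 108) in BAT, intervals that overlapped those of the Pdgfra class in taPVAT (28.2 to 145) and of the endothelial class in BAT (21.1 to 60.04). After thinning to 200 UMIs it was detected in 3.06% (2.42 to 3.80) and 3.33% (2.48 to 4.36) of nuclei in the white Parse libraries and in 0.628% and 0.667% in taPVAT and BAT.

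The 7 sodium channel genes listed as binding partners of Fgf14 and its relatives were all at least 2 times lower in brown than in white Parse fat. All 7 were also lower in mesPVAT on 10x than in the mesPVAT-labelled Parse library, a direction shared by 31.5% of 12067 genes. Scn8a, for example, measured 83.3 and 105 CPM in the white Parse libraries, 9.02 and 10.3 CPM in taPVAT and BAT and 13.7 CPM on 10x. Brown fat was lower in 47.5% of all genes compared, and among the 10 genes 2 were, Fgf2 and Fgf14, so that this direction was common in the table. It also moved with the length of the gene. Fgf14 spans 644 kb in the rat annotation (GRCr8), and 545 genes of more than 300 kb had a median log2 ratio of white to brown of 1.71 (quartiles 0.25 and 2.97), against -0.67 for 844 genes under 10 kb. The value for Fgf14 was 2.99. The genes most like Fgf14 over the 24 combinations of library and class were Mgat4c (r = 0.96), Fzd1 (r = 0.95) and Dnah9 (r = 0.94). Gene length, depth and depot move together here, as does centrifugation speed between taPVAT and the white libraries. Their parts in the Fgf14 levels were not tested.

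**Figure D4:**
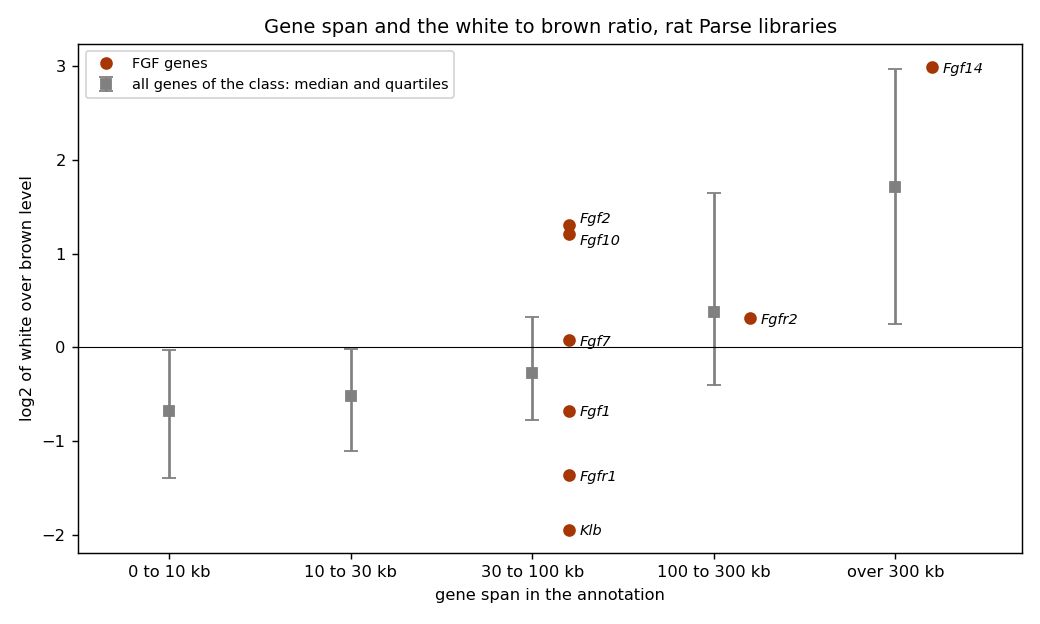
Log2 ratio of the summed white to the summed brown level (CPM, with 1 added to each sum) in the rat Parse libraries by gene span. Grey squares and bars are the median and quartiles of all genes in each span class, brown points are 8 of the 10 genes with at least 200 UMIs, and Fgf14 lies highest at 2.99 and Klb lowest at -1.94.

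Between depots of the same colour the 10 genes differed little. None was at least 2 times higher or lower in BAT than in taPVAT, where 0.649% of 18640 genes were higher and 4.89% lower. The largest gap was for Fgf7, 0.629 times (0.503 to 0.786), alongside 14.7 CPM of Pdgfra in BAT and 56.9 CPM in taPVAT. None was higher or lower in the RP-labelled library than in the mesPVAT-labelled one, where 8.15% and 4.85% of 18474 genes were. Fgf10 (0.590 times, 0.362 to 0.933) and Fgfr1 (0.607 times, 0.483 to 0.758) were the lower ones in the RP-labelled library. Plin1 was at 478 CPM there against 1287 CPM in the mesPVAT-labelled library. The ratio of Fgfr1 within the Plin1 class was 0.919 (0.545 to 1.48). Which depot these directions belong to depends on the labels, which are uncertain.

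The brown to white comparison depended on the scaling. Median-of-ratios size factors, which set the middle gene equal, came to 0.195 in BAT, 0.238 in taPVAT, 0.611 in the mesPVAT-labelled and 0.850 in the RP-labelled library, each as the size factor over total UMIs, scaled as for CPM. With these factors Fgf1, Fgf7, Fgfr1, Fgfr2 and Klb were all higher in brown fat, where 33.0% of all genes were, and Fgf14 alone was lower, where 14.8% were. Klb and Fgf14 kept their directions under both scalings. Depot and centrifugation speed differ together between taPVAT and the white Parse libraries, and cannot be told apart.

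Other parts of the pathway were measured from 58 listed genes. Of the 17 other listed FGF family genes 16 were named in the rat files. Fgf12, another intracellular member, measured 219 CPM in the mesPVAT-labelled library, 289 CPM in the RP-labelled library, 80.0 CPM in taPVAT and 74.2 CPM in BAT. Fgf21, singled out because it acts through beta-klotho, measured 12.1 CPM in mesPVAT on 10x and at most 5.22 CPM in the other libraries. Fgf18 was at 40.2 CPM in the RP-labelled library and 18.1 CPM in the mesPVAT-labelled library. In brown against white fat, 0 of 9 compared genes of this list were higher and 6 lower, among them the intracellular members Fgf12 and Fgf13. The largest ratios were for Fgf5 (11.4), Fgf13 (7.39) and Fgf17 (5.72), from 28, 54 and 20 UMIs in the white libraries. Among 4 other receptors and co-factors 0 were higher and 2 lower (Fgfr4 and Kl). Among 11 heparan sulfate genes Sdc4, a cell-surface proteoglycan, was higher in brown fat, with 194 CPM in BAT and 193 CPM in taPVAT against 19.3 and 16.6 CPM in the white Parse libraries, and 3 were lower (Gpc6, Gpc1 and Gpc3). On 10x, mesPVAT held 444 CPM of Sdc4, above both brown depots and 23.0 times (16.1 to 34.0) the mesPVAT-labelled Parse library. Of 7 adaptors 0 passed 2-fold in either direction. Of 10 feedback genes and targets 0 were higher and 2 lower (Etv4 and Il17rd), with the 47.5% of all genes that were lower as the background. BAT and taPVAT differed in few of them. Gpc3, Sdc2 and Etv5 were lower in BAT and Frs3 was higher.

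Likeness over the combinations of library and class was also computed for the other genes with enough UMIs. The genes most like Klb included Chkb, a choline kinase (r = 0.85), and Coq5, an enzyme of coenzyme Q synthesis (r = 0.83). Fgfr1 was most like Ggnbp2 (r = 0.86), Cnst (r = 0.85) and Akap8l (r = 0.84), and Fgfr2 was most like Eci2, an enzyme of fatty acid oxidation (r = 0.84), Depdc5 (r = 0.83) and Trim26 (r = 0.81). Fgf1 was most like Elp6 (r = 0.81), Tssc4 (r = 0.79) and Naprt (r = 0.78), and Fgf2 was most like Amer1 (r = 0.75), Vapb (r = 0.74) and Smyd3 (r = 0.73).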

How the data were processed

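The authors deposited UMI counts per gene and nucleus without normalization. Per the methods, Parse reads were separated by species and counted with split-pipe on GRCr8 or ARS-UCD1.3, and 10x reads were counted with Cell Ranger 7.1.0 (named in the file header), with Rnor_6.0 given as the genome. FastQC and Scanpy are named in the submitters' processing notes. The 10x nuclei were sorted for DAPI after an earlier isolation protocol. All deposited barcodes were used here. Counts were summed over nuclei and divided by total UMIs. A gene was called past 2-fold when the ratio was at least 2 or at most 0.5, its 95% interval left out 1 and the libraries held at least 20 UMIs. In brown against white, the lowest library of one colour was set against the highest of the other. No interval was used for that comparison, only the fold and at least 20 UMIs over the libraries compared. With 1 library per group no test was possible. The limit for a count of 0 is 3 counts. Of 9387 genes with at least 200 UMIs, 89.4% had a span in the RefSeq table. Genes named as most like a member were the 3 with the highest r, except that a gene among those for Klb is not reported here. The genes, pathway lists, marker lists and comparisons were chosen with earlier results of these data known, and the comparisons within a class were added after the data were seen. The steps were checked on simulated data. Python 3.11.15, numpy 2.4.6, scipy 1.17.1, pandas 2.3.3 and matplotlib 3.10.9 were used, with the random seed 20. The pathway genes named were up to 3 per list with the largest ratio.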

Additional observations from a re-analysis of the deposited data

Results flagged for a closer look

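Class ratios (the level in 1 single-marker class over the other classes) that passed 2-fold upward in 1 library and downward in another were picked out. The differences between libraries were not tested. For Fgf1 in the Plin1 class the ratio was 0.349 in mesPVAT on 10x, 2.52 in BAT and 4.10 in cow WAT. The BAT value (1.03 to 8.01) rested on 5 UMIs in the other classes, and was 1.68 with the longer marker lists, under 2-fold. For Fgf2 in the Plin1 class it was 4.02 in cow WAT, with 0.188 in taPVAT and 0.355 in BAT. For Fgf10 in the Plin1 class it was 6.62 in mesPVAT on 10x, 0.123 in taPVAT and 0.172 in BAT, and in the Ptprb class it was 3.90 in BAT and 0.152 in cow WAT. For Fgf7 in the Notch3 class it was 6.23 in BAT and 0.337 in cow WAT. The low Fgf1 value on 10x stands beside 503 nuclei of the Msln class, which were in the other arm of that ratio.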

How the results depend on the processing

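No paired analysis was possible because each group has 1 library. Of 64 recomputed counts of genes past the fold, 49 stayed within 1.5 times. A count of 0 that stayed 0 is among these. For BAT against taPVAT and for the RP-labelled against the mesPVAT-labelled library the main counts were 0 in both directions, so they could not fall. The share over all genes was recomputed only for brown against white. With a fold of 1.5, 1 gene was lower in BAT than in taPVAT, and 2 were higher and 4 lower in brown than in white. Of all genes, 10.2% were higher and 53.1% lower in brown at this fold. At this fold 2 were lower in the RP-labelled than in the mesPVAT-labelled library. With size factors, 2 were lower in the RP-labelled library, and 5 were higher and 1 lower in brown (33.0% and 14.8% of all genes). Without the 20 largest genes in the total, 2 were higher and 1 lower in brown (6.73% and 45.8% of all genes). With the 10x library added, 0 were higher and 1 lower (3.00% and 4.29% of all genes). With a fold of 3, and with nuclei of at least 500 UMIs, 1 was lower in brown, where 39.5% and 41.3% of all genes were. On 10x against Parse 1 was lower with at least 50 UMIs and 1 with nuclei of at least 500 UMIs. Of 372 recomputed class ratios 317 kept their call, 48 lost it on the same side of 1, and 7 lost it and crossed 1. None of the 7 was past 2-fold in the other direction. The settings differed widely. Allowing nuclei of several markers kept 35 of 63 calls, with 22 lost on the same side of 1 and 6 that crossed 1. Using nuclei of at least 500 UMIs kept 59 of 60. With nuclei of several markers allowed, the cow Notch3 ratios became 0.842 for Fgf1, 1.12 for Fgf7 and 1.28 for Fgf10, the cow Klb ratios 1.70 for Ptprb and 1.33 for Pdgfra, and the taPVAT Pdgfra ratio of Fgf14 0.972. With longer marker lists the cow stromal ratio of Fgf14 became 0.974. The cause was not tested. Of 340 recomputed levels 291 stayed within the counting interval. Those that moved by over 1.5 times and are not given above were in nuclei of at least 500 UMIs or in single sublibraries. The former were Fgf7 in the RP-labelled library (12.5 CPM) and, on 10x, Fgf9 (185 CPM) and Fgf14 (4.86 CPM). The latter were Fgf9 in the RP-labelled library (16.4 CPM) and Fgfr3 in BAT (3.80 CPM). Thinned shares rise with the depth kept, and 195 of 230 moved. Leaving out the nucleus with most UMIs of a gene was added after seeing the data. Low UMI counts limit each class value in the white rat libraries, and background RNA was not separated from nuclei.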
